A study of Mus musculus with 6 samples.

Results

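The genes described here are 32 ER chaperones and components of the unfolded protein response, picked by symbol from the 24346 genes of a renal cortex RNA-seq experiment in mice. They cover the folding machinery of the endoplasmic reticulum (ER), the degradation of proteins that fail to fold, the entry of new proteins into the ER, and the sensors that set the level of all of these. The 32 genes were found in all 6 libraries, and all 32 passed the filter on low values (at least 1 FPKM in at least 3 libraries), which 12248 genes passed in all.

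The animals were C57BL/6 mice. All of them ate for 8 weeks a diet high in fat and cholesterol with bile salt, labelled HF/HC/HS/BA, which is used to produce steatohepatitis. The HS of this label, shared by both groups, is not expanded here. In 3 mice this diet contained tofogliflozin, an inhibitor of the renal glucose transporter SGLT2, and the 3 control mice received the diet without the drug. Both groups therefore carry the diet, and mice on standard chow were not analysed here. Their age and sex went unstated. Levels are FPKM, fragment counts scaled to transcript length and library depth, so they can be compared between genes.

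The ER is where secreted and membrane proteins fold, and the renal proximal tubule, with its dense set of membrane transporters, is rich in it. When unfolded proteins build up there, 3 membrane sensors respond: IRE1 (gene Ern1), which splices the mRNA of the transcription factor XBP1, ATF6, which is cut to release a transcription factor, and PERK (gene Eif2ak3), a kinase that slows translation. ATF6 and spliced XBP1 raise chaperones, folding enzymes and degradation factors, in part through the ER stress element, a promoter motif first described in chaperone genes.

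That motif marks the promoters of many of the genes described here, so its sites are shown before the values. In the 250 bases before the RefSeq start sites (GRCm38.p6), the ER stress element, CCAAT and CCACG with 9 bases of any kind between them and searched on both strands, was found in 9 of the 27 members with a promoter entry. It occurred in 35 of all 27025 genes with an entry (0.13%). The capitals mark the fixed letters of the motif, and each site is written along the strand of its gene.
Hspa5: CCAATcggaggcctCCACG
Pdia6: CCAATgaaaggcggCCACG
Dnajc3: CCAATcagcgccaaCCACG
Syvn1: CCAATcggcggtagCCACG
Canx: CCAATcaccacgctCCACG
Calr: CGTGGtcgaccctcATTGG
Creld2: CGTGGcgagcctcaATTGG
Derl3: CGTGGgacttccccATTGG
Hsp90b1, distal: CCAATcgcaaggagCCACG
Hsp90b1, proximal: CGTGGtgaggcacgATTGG

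The sites began between 44 bases (Syvn1) and 212 bases (the distal site of Hsp90b1) before the RefSeq start site, and Hsp90b1 was the member with 2 of them. In the GENCODE annotation Hspa5 starts at 34771970, so its site (chr2:34772025-34772043) lies inside that gene span. For Dnajc3, the bases shortly after the RefSeq start were not found in a GENCODE transcript of the gene. In Calr, Creld2 and Derl3 the site lies in the opposite orientation. A shorter variant, ER stress element II (ATTGG and CCACG with 1 base between them, both strands), was present in 1 member, Herpud1, and in 0.037% of all genes with an entry. Herpud1 was also the 1 member with TGATGNAA (both strands), the core letters of the amino acid response element bound by ATF4 downstream of PERK (3.91% of all genes). TGACGTGG, the letters of the unfolded protein response element, were in 0.603% of genes and in no member. The ERSE-II site of Herpud1 did not overlap its TGATGNAA match. The promoters of Creld2 (chr15:88819396-88819645, plus strand) and Herpud1 (chr8:94386179-94386428, plus strand) are printed because the values of these genes lay on opposite sides in the comparison below. The promoter of Canx (chr11:50325674-50325923, minus strand) is printed because Canx holds the full motif and had nearly equal levels in both groups. Capitals mark the fixed letters of the motifs named above.
Creld2: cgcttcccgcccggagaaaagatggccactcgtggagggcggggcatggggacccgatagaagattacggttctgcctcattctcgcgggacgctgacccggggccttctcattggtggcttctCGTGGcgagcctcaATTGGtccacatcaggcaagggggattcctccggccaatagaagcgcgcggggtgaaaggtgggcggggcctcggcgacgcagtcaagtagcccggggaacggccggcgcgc
Herpud1: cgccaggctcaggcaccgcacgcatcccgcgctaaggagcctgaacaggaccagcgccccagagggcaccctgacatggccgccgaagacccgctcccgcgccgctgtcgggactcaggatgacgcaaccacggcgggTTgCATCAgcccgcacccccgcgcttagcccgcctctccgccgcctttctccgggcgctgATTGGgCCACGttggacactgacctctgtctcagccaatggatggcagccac
Canx: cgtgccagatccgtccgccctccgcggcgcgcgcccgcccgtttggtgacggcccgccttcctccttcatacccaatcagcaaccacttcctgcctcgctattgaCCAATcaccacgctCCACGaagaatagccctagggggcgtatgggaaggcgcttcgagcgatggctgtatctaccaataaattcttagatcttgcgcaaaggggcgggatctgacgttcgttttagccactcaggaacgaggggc

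The comparison of tofogliflozin with the diet alone gave no member past the adjusted threshold (0 of 32; limma with Benjamini-Hochberg adjustment over all 12248 genes, adjusted p under 0.05). Of all genes tested, 0.253% passed, and 0.0572% passed with a lower level. At an unadjusted limma p under 0.05, 15 of the 32 were lower with tofogliflozin and 1 was higher. Over all genes tested, 6.39% were lower and 6.7% higher by the same rule. The members were chosen with earlier results of these data known, so the counts here and below are descriptive and not independent evidence. The 15 lower genes were mainly chaperones, disulfide isomerases and degradation factors of the ER, the 1 higher gene was Herpud1, and the sensors and the translocon genes were not among them. The count of 15 was 9 without diet replicate 1 and also 9 without tofogliflozin replicate 3.

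In 12 of the 32 members every tofogliflozin library lay below every diet library, and in 2 (Herpud1 and Dnajc10) every one lay above. Over all genes tested 8.86% lay wholly below and 9.63% wholly above. The median log2 change of the 32 members was -0.19, on the log2(FPKM + 1) scale used for all changes below, with 24 members below 0. The median of all genes tested was 0.00, and 50.3% of them were below 0. In bulk tissue, fewer cells of a type and less RNA per cell cannot be told apart.

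**Figure D1:**
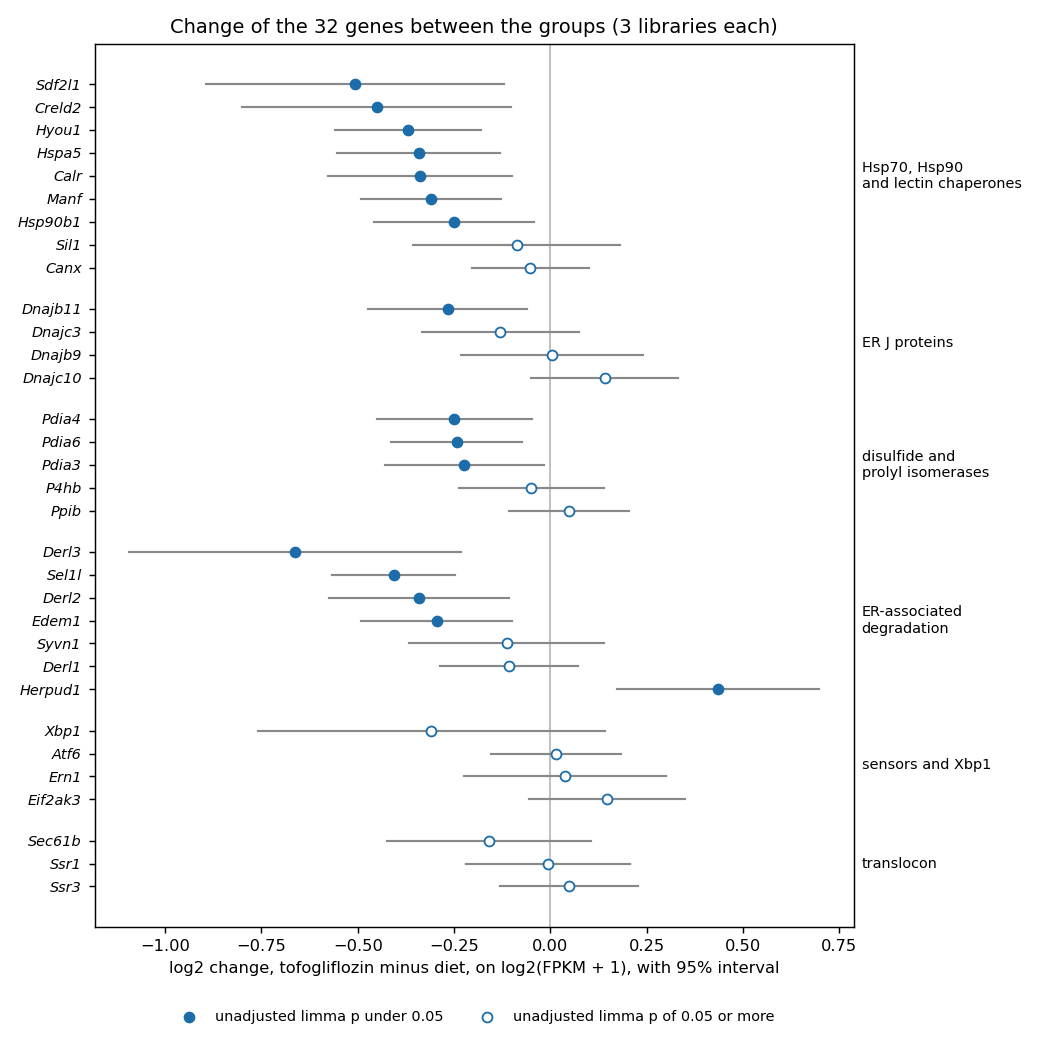
Log2 change (tofogliflozin minus diet, on log2(FPKM + 1)) of each of the 32 genes, grouped by role, with limma's 95% interval; filled points have an unadjusted limma p under 0.05. The 15 filled points left of 0 lie among J proteins, isomerases, degradation factors and the chaperone group, which includes Manf, Creld2, Sdf2l1 and Sil1. Herpud1 is the 1 filled point right of 0, and the sensors and translocon genes have intervals that include 0.

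Among the chaperones and the ER proteins grouped with them, Hspa5 encodes BiP, the Hsp70 of the ER lumen and the usual readout of the response. Hspa5 was at 327, 318 and 304 FPKM in diet replicates 1, 2 and 3 and at 280.1, 241 and 229.8 FPKM in tofogliflozin replicates 1, 2 and 3. The groups did not overlap, and tofogliflozin replicate 1 was the nearest to the diet libraries. The log2 change of Hspa5 was -0.34 ± 0.09 (SE; 95% interval -0.55 to -0.13; limma adjusted p = 0.194), a mean 20.9% lower. In the GENCODE annotation of GRCm38, the build named for the files (mm10), Hspa5 lies on chromosome 2 from 34771970 to 34777547, and each value here is for the whole gene.

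Hyou1 encodes GRP170, a large Hsp70 relative that exchanges nucleotide on BiP. Its diet libraries were at 46.4, 41.5 and 41.1 FPKM and its tofogliflozin libraries at 33.4, 35.1 and 30.6 FPKM. The groups were apart by more than the range within either, and the log2 change was -0.37 ± 0.08 (SE; limma adjusted p = 0.125). Manf, a secreted stress protein that binds BiP, was at 35.3, 34.9 and 33.6 FPKM against 30.2, 27.5 and 25.6 FPKM (limma adjusted p = 0.177). The 3 diet libraries of Manf were closely spaced (SD 0.886 FPKM) and the tofogliflozin libraries less so (SD 2.34 FPKM). Manf shares 146 exon bases with Dcaf1 on the opposite strand, and the use of strand in counting is not given in the sources used here.

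Calr encodes calreticulin, the soluble lectin chaperone for newly made glycoproteins, and had the highest mean level of the 32 genes in both groups. Its diet libraries were at 525, 474 and 428 FPKM and its tofogliflozin libraries at 412, 365 and 349.8 FPKM. The lowest diet library lay just above the highest tofogliflozin library, and the log2 change was -0.34 ± 0.10 (SE; limma adjusted p = 0.228). Canx encodes calnexin, the membrane-bound partner of calreticulin, and was at 109.9 ± 4.30 and 106 ± 2.02 FPKM (diet and tofogliflozin, mean ± SD, n = 3 each). The log2 change of Canx was -0.05 (95% interval -0.20 to 0.10; limma adjusted p = 0.789). Within a library the ratio of Calr to Canx FPKM, which does not depend on the scaling of the library, was 4.63, 4.27 and 4.07 in the diet libraries and 3.83, 3.53 and 3.28 in the tofogliflozin libraries. This pair was chosen after its values were seen and was not tested.

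Creld2 and Sdf2l1, small ER proteins that are among the most inducible genes of the response, had larger changes and wider spreads. Sdf2l1, which works with the J protein Dnajb11, was at 20.4, 15.7 and 17.3 FPKM on the diet alone against 16.1, 9.95 and 11.3 FPKM with tofogliflozin. Its groups overlapped because tofogliflozin replicate 1 lay above diet replicate 2, and the log2 change was -0.51 ± 0.17 (SE; limma adjusted p = 0.253). Creld2 had means of 48.7 ± 10.1 and 35.0 ± 4.08 FPKM and its groups also overlapped (log2 change -0.45; limma adjusted p = 0.261). Hsp90b1, which encodes the ER Hsp90 known as GRP94, was at 262 ± 7.52 and 221 ± 23.4 FPKM with groups apart (log2 change -0.25; limma adjusted p = 0.288). Hsp90b1 shares 415 exon bases with a pseudogene on the opposite strand. Sil1, a nucleotide exchange factor of BiP, had means of 30.3 ± 3.05 and 28.6 ± 3.88 FPKM (limma adjusted p = 0.801). The log2 change lay below 0 for 9 of 9 genes of this group (median -0.34), although that of Sil1 turned to 0.0247 without tofogliflozin replicate 3. The group holds Manf, Creld2, Sdf2l1 and Sil1 beside the Hsp70, Hsp90 and lectin chaperones.

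**Figure D2:**
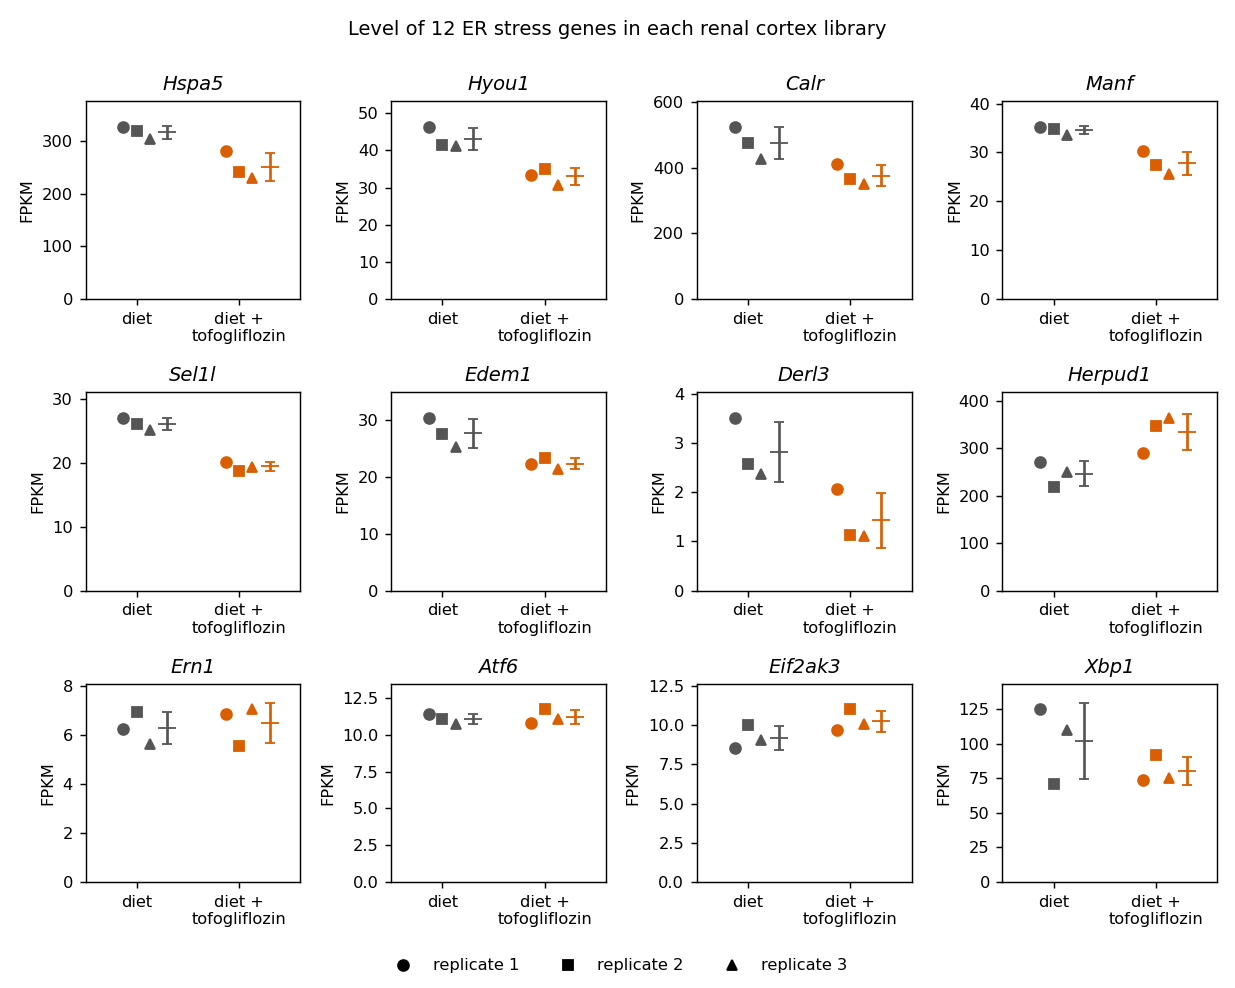
FPKM of 12 of the genes in each library (grey, diet; orange, diet with tofogliflozin; marker shape, replicate), with mean and SD of 3 libraries beside the points and axes from 0. The groups are apart in the upper row and in Sel1l, Edem1, Derl3 and Herpud1, and they overlap in Ern1, Atf6, Eif2ak3 and Xbp1.

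The J proteins bring substrates to BiP or stimulate its ATPase, and as a group they were mixed. Dnajb11, a soluble J protein that binds unfolded chains, was at 68.2, 61.3 and 62.0 FPKM on the diet alone against 58.4, 52.7 and 48.0 FPKM with tofogliflozin. Its groups did not overlap (log2 change -0.27 ± 0.09, SE; limma adjusted p = 0.258). Dnajb9, a J protein that restrains IRE1, had equal means of 25.2 ± 3.04 and 25.2 ± 1.85 FPKM (95% interval of the log2 change -0.23 to 0.24). Dnajc3, also known as p58IPK, was at 50.4 ± 5.43 and 45.8 ± 0.960 FPKM (limma adjusted p = 0.578). Dnajc10, a reductase that acts in degradation, was at 11.6 ± 0.935 and 12.9 ± 0.509 FPKM, with its tofogliflozin libraries above its diet libraries (log2 change 0.14; limma adjusted p = 0.519).

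Of the isomerases, which form and reshuffle disulfide bonds or, for Ppib, turn prolines, 3 of 5 were lower at an unadjusted limma p under 0.05. By this rule 6.39% of all genes tested were lower. Pdia6 was at 124, 117 and 113 FPKM on the diet alone against 106, 97.7 and 95.7 FPKM with tofogliflozin. The groups of Pdia6 were apart (log2 change -0.24 ± 0.07, SE; limma adjusted p = 0.225). Pdia4 was at 62.7 ± 2.46 and 52.8 ± 5.30 FPKM, and Pdia3, the isomerase that partners calnexin and calreticulin, at 243 ± 17.3 and 208 ± 17.4 FPKM. Their limma adjusted p was 0.279 and 0.343, and the groups of Pdia3 overlapped. P4hb, the founding disulfide isomerase and also a subunit of collagen prolyl hydroxylase, was at 350.0 ± 26.3 and 338 ± 10.2 FPKM (95% interval of the log2 change -0.24 to 0.14). Ppib, cyclophilin B, was at 139.7 ± 6.05 and 144 ± 3.09 FPKM (95% interval -0.11 to 0.20), and 825 of its exon bases are shared with Snx22 on the opposite strand.

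ER-associated degradation extracts failed proteins to the cytosol for the proteasome, and its genes held both the smallest p among the members and the 1 member that was higher. Sel1l, the scaffold of the ubiquitin ligase HRD1, was at 27.0, 26.1 and 25.1 FPKM on the diet alone against 20.1, 18.7 and 19.3 FPKM with tofogliflozin. The gap between its groups was wider than the range inside either, and its mean was 25.5% lower. The log2 change of Sel1l was -0.41 ± 0.07 (SE; 95% interval -0.57 to -0.25; limma adjusted p = 0.0682), which misses the threshold. With weights estimated for each library Sel1l was the 1 member that passed (limma adjusted p = 0.0398), and over the 14 other settings its adjusted p ran from 0.0398 to 0.281. The gene is on chromosome 12, minus strand, between 91806043 and 91849157. Syvn1, which encodes HRD1 itself, was at 24.4 ± 3.06 and 22.5 ± 2.13 FPKM with overlapping groups (log2 change -0.11, 95% interval -0.37 to 0.14).

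Herpud1 encodes an ER membrane protein with a ubiquitin-like domain that assembles the HRD1 complex and that is itself strongly induced by ER stress. Herpud1 was at 271, 219 and 250.045 FPKM in diet replicates 1, 2 and 3 and at 291, 348 and 364 FPKM in tofogliflozin replicates 1, 2 and 3. The groups did not overlap, and again tofogliflozin replicate 1 was the nearest to the diet libraries. The log2 change was 0.44 ± 0.11 (SE; 95% interval 0.17 to 0.70; limma adjusted p = 0.184). The FPKM ratio of Herpud1 to Hspa5 was 0.828, 0.689 and 0.823 in the diet libraries and 1.04, 1.45 and 1.58 in the tofogliflozin libraries, so Hspa5 was the more abundant transcript in the former and Herpud1 in the latter. This ratio too was chosen after its values were seen and was not tested. The gene is on chromosome 8, plus strand, between 94386438 and 94395377.

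Edem1, a mannosidase-like protein that directs glycoproteins to degradation, was at 30.4, 27.6 and 25.2 FPKM against 22.3, 23.4 and 21.5 FPKM (log2 change -0.29; limma adjusted p = 0.208). The derlins are membrane proteins of the exit channel. Derl2 was at 14.9, 14.4 and 12.6 FPKM on the diet alone against 12.1, 10.7 and 9.68 FPKM with tofogliflozin (log2 change -0.34; limma adjusted p = 0.218). Derl3 was the least abundant member, at 3.51, 2.58 and 2.37 FPKM against 2.08, 1.12 and 1.10 FPKM. The groups of Edem1, Derl2 and Derl3 were each apart. The change of Derl3 was -0.66 ± 0.19 (SE; limma adjusted p = 0.203), the largest in size of the 32. Derl3 rests on only about 17.5 to 51.7 fragments per library, so its counting error is large. These numbers use an approximate depth, in which the lowest positive FPKM of a low gene was taken as a single fragment. Derl1 was at 46.9 ± 1.81 and 43.5 ± 3.28 FPKM (limma adjusted p = 0.602).

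The 3 sensor genes were among the less abundant members in both groups. Their log2 changes lay above 0, and none was below an unadjusted limma p of 0.05. Ern1 was at 6.24, 6.96 and 5.65 FPKM on the diet alone against 6.89, 5.54 and 7.06 FPKM with tofogliflozin. Atf6 was at 11.4, 11.1 and 10.7 FPKM against 10.8, 11.7 and 11.0 FPKM. The libraries of both genes were interleaved, with 95% intervals of the log2 change from -0.22 to 0.30 for Ern1 and from -0.15 to 0.18 for Atf6. Eif2ak3 was at 8.52, 9.98 and 9.05 FPKM against 9.71, 11.0 and 10.1 FPKM (log2 change 0.15; limma adjusted p = 0.529).

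Xbp1 was at 125, 70.9 and 109.9 FPKM on the diet alone against 73.4, 91.9 and 75.4 FPKM with tofogliflozin. Diet replicate 2 lay below all 3 tofogliflozin libraries while the other diet libraries lay above them, and the log2 change was -0.31 ± 0.20 (SE; limma adjusted p = 0.552). Without diet replicate 2 the change of Xbp1 was -0.55 (limma adjusted p = 0.0816), and without diet replicate 1 it was -0.14 (limma adjusted p = 0.856). A value per gene cannot tell spliced from unspliced Xbp1 mRNA, nor does it show whether ATF6 or PERK protein is active.

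The translocon members carry new chains into the ER, and the groups of all 3 overlapped. Ssr1 and Ssr3, of the signal sequence receptor that sits beside the channel, were at 9.74 ± 1.05 and 9.66 ± 0.272 FPKM and at 90.7 ± 6.98 and 93.6 ± 2.96 FPKM. Sec61b, a subunit of the channel, was at 118 ± 10.1 and 106 ± 14.8 FPKM. Limma adjusted p ran from 0.603 for Sec61b to 0.984 for Ssr1.

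The 15 lower members kept a similar order of libraries inside each group, which the choice of these members does not fix. Diet replicate 1 was the highest diet library in 14 of the 15 and tofogliflozin replicate 1 the highest tofogliflozin library in 13. Tofogliflozin replicate 3 was the lowest tofogliflozin library in 11 of the 15, and tofogliflozin replicate 2 in the other 4. How often these libraries ranked so over all genes tested was not counted. Over all 32 members, the median deviation from each gene's mean (log2) was 0.16, 0.09 and 0.03 in diet replicates 1, 2 and 3 and -0.01, -0.07 and -0.18 in tofogliflozin replicates 1, 2 and 3. The same median over all genes tested lay between -0.01 and 0.01 in every library.

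**Figure D3:**
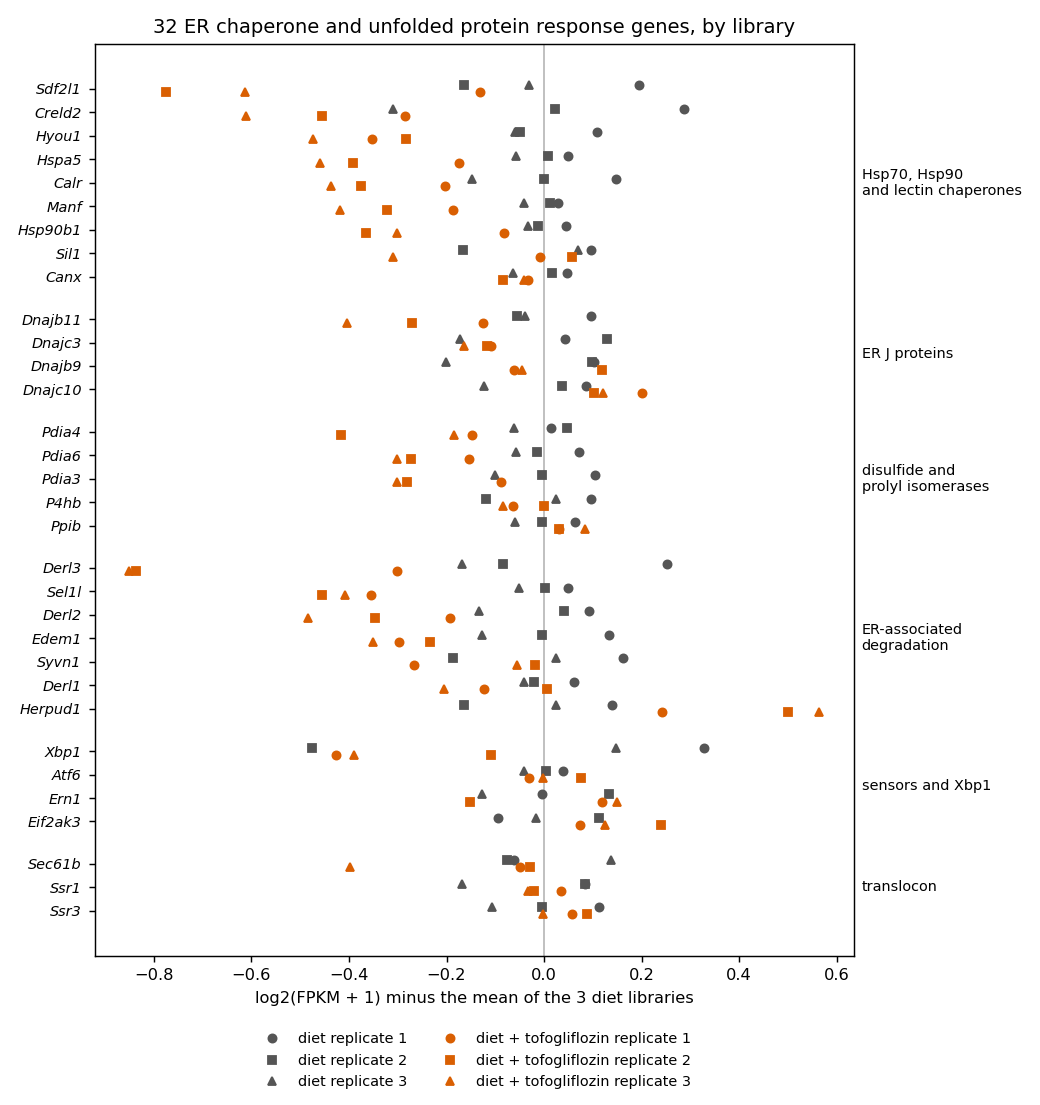
Log2(FPKM + 1) of the 32 genes in each library, relative to the mean of the 3 diet libraries (grey, diet; orange, diet with tofogliflozin; marker shape, replicate). Among the tofogliflozin libraries of the 15 lower genes, replicate 1 (orange circle) is the highest in 13 and replicate 3 (orange triangle) the lowest in 11, and in Herpud1, on the other side of 0, replicate 1 is also nearest to the diet libraries.

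The members with the ER stress element in their promoter were all below 0 (9 of 9, median log2 change -0.25). Of these, 6 were lower at an unadjusted limma p under 0.05 (6.39% of all genes tested were), and Canx, Dnajc3 and Syvn1 were not. The 18 members with a promoter entry and no such site had a median of -0.10, with 11 below 0 and 7 lower at that p. The motif also occurred in 5 other tested genes with an entry, which had a median of 0.28 with 1 below 0. They were chosen by the motif alone and are Alg12, a mannosyltransferase of glycan assembly, at -0.14, Pan2 at 0.09, Acacb at 0.28, Hnrnpa3 at 0.29 and Acnat2 at 0.77 (log2 changes; limma adjusted p from 0.109 for Acnat2 to 0.743 for Pan2). A match of letters is a description of the promoter and does not show binding.

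Beyond the members, 135 other genes of ER proteostasis were read from the same fit, of which 126 were tested. None passed the adjusted threshold (0 of 126; limma). Their median log2 change was -0.04, with 79 below 0 (50.3% of all genes tested were). In 17 (13.5%) every tofogliflozin library lay below every diet library, and in 10 every one lay above. Over all genes tested 8.86% lay wholly below and 9.63% wholly above. When limma's p was left unadjusted (under 0.05), 7 were higher and 6 (4.76%) lower. Over all genes tested 6.7% were higher and 6.39% lower by that rule. The counts of higher and lower genes by list below use the same rule. Among 35 other folding enzymes 2 were higher and 1 lower, with a median of -0.01. Prdx4, the ER peroxiredoxin that uses hydrogen peroxide to drive disulfide formation, was at 23.4 ± 2.41 and 33.0 ± 5.78 FPKM with groups apart (log2 change 0.47; limma adjusted p = 0.201). Ero1l, the oxidase that recharges disulfide isomerases, was at 9.78 ± 0.187 and 11.1 ± 0.433 FPKM (limma adjusted p = 0.373). Dnajb12, a membrane J protein, was at 37.6 ± 2.92 and 32.4 ± 0.626 FPKM (limma adjusted p = 0.298).

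Of 30 other degradation genes none was higher and 2 were lower (median -0.04), namely Ube2g2, a ubiquitin-conjugating enzyme used by ER ligases, at 19.2 ± 0.601 and 16.4 ± 1.45 FPKM, and Ubxn4, a cofactor of the p97 ATPase, at 27.6 ± 0.0632 and 24.2 ± 2.02 FPKM. Nploc4, another p97 cofactor, was at 21.2 ± 1.31 and 18.9 ± 1.68 FPKM. Of 31 other genes of the translocon, signal peptidase and oligosaccharyltransferase, 1 was higher and 1 lower (median -0.05). These were Sec61a2, at 5.15 ± 0.765 and 6.96 ± 1.52 FPKM, and Rpn1, a subunit of oligosaccharyltransferase, at 69.1 ± 3.45 and 60.5 ± 2.18 FPKM. Sec62, which also takes part in ER autophagy, was at 75.1 ± 2.80 and 84.7 ± 6.57 FPKM. For these 6 genes limma adjusted p lay between 0.301 (Rpn1) and 0.476 (Nploc4). Of the 31 translocon, signal peptidase and oligosaccharyltransferase genes, 22 lay below 0, with 6 (19.4%) wholly lower with tofogliflozin and 2 wholly higher. For the 30 degradation genes these counts were 20, 4 (13.3%) and 1.

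In the output of PERK and the integrated stress response, 16 of 20 genes were tested, 2 were higher and 1 lower, and the median was 0.08. Sesn2, a stress-induced inhibitor of mTORC1, was at 16.1, 28.0 and 17.8 FPKM against 31.1, 34.4 and 29.9 FPKM (log2 change 0.64; limma adjusted p = 0.206), and without diet replicate 2 its change was 0.87 (limma adjusted p = 0.0159). Without diet replicate 1 the change of Sesn2 was 0.49, and over the 6 fits with a library left out its limma adjusted p ran from 0.0159 to 0.486. Cebpb, a transcription factor, was at 12.8, 4.97 and 13.3 FPKM against 15.5, 19.5 and 19.8 FPKM (limma adjusted p = 0.288). Diet replicate 2 stood apart from the other diet libraries in both genes, as the highest for Sesn2 and the lowest for Cebpb. Aars, an aminoacyl-tRNA synthetase gene under ATF4, was at 28.9 ± 2.09 and 23.6 ± 1.87 FPKM (limma adjusted p = 0.225). Of 14 other sensors and ER transcription factors, 2 were higher and 1 lower (median -0.01). Creb3l1, a membrane-bound transcription factor related to ATF6, was at 2.02 ± 0.700 and 1.05 ± 0.186 FPKM, Bfar at 14.6 ± 0.811 and 16.9 ± 0.312 FPKM, and Map3k5, the kinase ASK1, at 12.6 ± 0.792 and 15.6 ± 2.12 FPKM (limma adjusted p from 0.284 to 0.325).

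**Figure D4:**
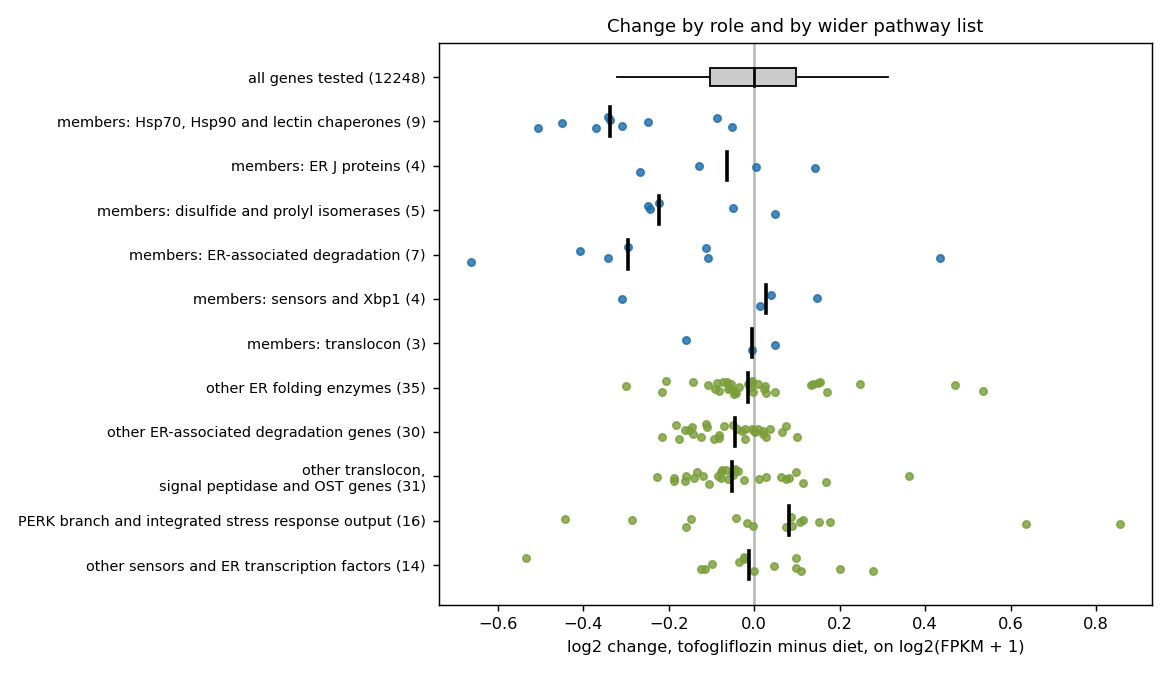
Log2 change (tofogliflozin minus diet) of single genes by role of the members (blue) and in 5 wider lists of the pathway (green), with the number of genes in brackets and a black bar at the median; the box for all genes tested spans the quartiles and its line the 5th to 95th percentile. The medians of the chaperone group, the isomerases and the degradation members lie at -0.34, -0.22 and -0.29, and those of the wider lists between -0.05 and 0.08.

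The tissue label was checked with markers. Summed over 10 genes, proximal tubule markers were at 6040 to 6996 FPKM in the diet libraries and 5738 to 6404 FPKM with tofogliflozin, which overlap. Single genes went both ways, with 4 of the 10 above 0 and 6 below (median log2 change -0.10). At an unadjusted limma p under 0.05, Slc22a8 (0.59) and Slc5a12 (0.43) were higher with groups apart, and Slc22a6 (-0.31) was lower. Their limma adjusted p was 0.0883, 0.199 and 0.368. Markers of the distal convoluted tubule, 3 genes, summed to 347 to 384 FPKM on the diet alone against 389 to 448 FPKM with the drug, without overlap of the sums, with 3 of 3 above 0 (median log2 change 0.26) and 1, Pvalb, higher at an unadjusted limma p under 0.05. Markers of the collecting duct, 7 genes, summed to 266 to 320.2 FPKM with the diet and 367 to 406 FPKM with tofogliflozin, also without overlap. Of the 7, 5 were higher at an unadjusted limma p under 0.05, against 6.7% of all genes tested. Macrophage markers, 10 genes, summed to 162, 299 and 112 FPKM in diet replicates 1, 2 and 3 and to 119, 143 and 94.6 FPKM in tofogliflozin replicates 1, 2 and 3. Diet replicate 2 was the highest and the sums overlapped. Of the 8 macrophage markers tested, 7 were below 0, with a median log2 change of -0.43 against -0.19 for the members. Csf1r and Lyz2 were lower at an unadjusted limma p under 0.05, and the groups of Csf1r were apart (limma adjusted p = 0.198 and 0.312). Plasma cells make much of several members, Derl3, Creld2 and Sdf2l1 among them. Of the 7 plasma cell markers in the files, Tnfrsf17 was listed at 0 in all 6 libraries, Irf4 stayed at or below 0.232 FPKM and Pou2af1 at or below 0.352 FPKM. Mzb1 was at 1.63 to 2.29 FPKM and Jchain at 0.822 to 2.49 FPKM over the 6 libraries, with overlapping groups. Sdc1, which epithelial cells also make, was at 3.51 to 3.82 FPKM on the diet alone against 2.59 to 3.21 FPKM with the drug (log2 change -0.26; limma adjusted p = 0.339). Prdm1, under the filter, was at 0.539 to 0.981 FPKM against 0.458 to 0.525 FPKM. The groups of Sdc1 and Prdm1 were apart, in the direction of the lower members. Mzb1 was also lower in mean with tofogliflozin (2.04 and 1.84 FPKM, diet and tofogliflozin). The means of Jchain (1.32 and 1.53 FPKM), Irf4 (0.142 and 0.165 FPKM) and Pou2af1 (0.0607 and 0.195 FPKM) went the other way, with overlapping groups. The sum of the 7 was 7.50 to 8.39 FPKM with the diet and 6.01 to 8.31 FPKM with tofogliflozin. The part of any of these marker shifts in the values of the members was not tested.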

How the data were processed

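Renal cortex RNA of 6 mice, 3 per group, was sequenced. Groups and replicate numbers follow the labels. Per the labels' protocols, total RNA was column-purified and libraries were made with a stranded mRNA kit. The authors deposited 1 FPKM table per library for 24346 genes, per the file headers. The submitters' processing notes name build mm10, Cuffdiff 2.2.1, TopHat2 2.1.1 with Bowtie2 2.2.8, and SAMtools 0.1.18. Annotation, strand setting and normalization: not given in the sources used here. In every library the upper quartile of FPKM was 10.5 to 10.6, so the values may already be scaled between libraries. No counts were used. For genes below 0.3 FPKM in every library, the lowest positive value of each was assumed to be 1 fragment. With GENCODE lengths this gave an approximate depth of 7380000 to 9810000 fragments.

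The 12248 genes that reached 1 FPKM in 3 or more libraries were compared as log2(FPKM + 1) with limma 3.58.1 in R 4.3.3 (mean-variance trend, two-sided, Benjamini-Hochberg over all 12248, threshold 0.05). This scale understates changes of low genes. SE and 95% intervals are limma's. An exact permutation test of 3 against 3 libraries cannot go below 0.1 and was not used. The members and lists were chosen with earlier results of these data known. Values per library are given for the 12 members of smallest p and for Hspa5, Ern1, Atf6, Eif2ak3 and Xbp1, and up to 3 genes of smallest p are named from each wider list. Figures were drawn with matplotlib 3.10.9.

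Alternatives were a pseudocount of 0.1, no filter, a filter at 5 FPKM, upper-quartile scaling, quantile normalization, array weights, no trend, a replicate block, and leaving out each library. Promoter sequences are RefSeq's (GRCm38.p6), with 27 of 32 members matched by symbol, and positions and exon overlaps are from GENCODE vM21 (GRCm38). Exons of 10 members overlap a gene on the opposite strand.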

Additional observations from a re-analysis of the deposited data

How the results depend on the processing

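The number of members past the adjusted threshold was 0 in every other setting except array weights, where it was 1. With a library left out, the members at an unadjusted limma p under 0.05 numbered 10 to 17 against 16, and those of them that were lower 9 to 16 against 15. The median log2 change of the members stayed between -0.23 and -0.16 in all 15 settings run, the reported one included, or -0.21 to -0.16 without leaving out a library. Of 209 changes of the 15 lower members under other settings none changed sign. These members were picked for a lower level in the same libraries, so this count is not an independent check. Where the groups of a member were apart, leaving out a library could not change the sign. Over all members, 14 of 447 changes under other settings changed sign. Of all genes tested 31 passed as reported, 1 with no filter, 20 with a filter at 5 FPKM, 47 with upper-quartile scaling and 123 with array weights, and 2 to 70 with a library left out. Among the wider lists 0 to 1 genes passed with a library left out. Changes near 0 switched sign when a library was left out, with ranges of -0.17 to 0.0247 for Sil1, -0.10 to 0.0555 for Dnajb9, -0.0248 to 0.13 for Ern1, -0.0169 to 0.0368 for Atf6, -0.0902 to 0.0364 for Ssr1 and -0.00560 to 0.10 for Ssr3. With array weights Dnajb9 was at -0.0095. The cause of these shifts was not tested, and leave-out fits have fewer libraries. With the replicate number as a block, 14 members were lower at an unadjusted p and 0 passed. Deviations of same-numbered libraries correlated at -0.05, -0.06 and 0.05, and those of differently numbered libraries at -0.14 to 0.19. With 3 libraries per group these values cannot show whether the numbers pair the samples. Depth limits Derl3 most.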
